A study of Mus musculus with 12 samples.

Results

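The 9 genes described here encode alpha and beta tubulins: Tuba1a, Tuba1b, Tuba1c, Tuba4a, Tuba8, Tubb2a, Tubb2b, Tubb5 and Tubb6. They were found by symbol among the 21705 genes of the deposited table, and Tubb2a was picked for its rise in LNA29 livers, that is, chosen by the values compared below, while the other 8 came with it as members of the tubulin family. The data were liver transcriptomes of female C57BL/6J mice, 10 to 12 weeks old, sequenced from polyadenylated RNA. In the saline group, 6 mice received saline through the tail vein. In the LNA29 group, 6 mice received a pair of locked nucleic acid inhibitors by the same route, LNA29a against miR-29a and LNA29bc against miR-29b and miR-29c, at 20 mg/kg each. All livers were taken on day 7, after an 18 h fast. The series holds no livers treated with a control LNA, so an effect of LNA chemistry and an effect of miR-29 inhibition cannot be told apart.

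Alpha and beta tubulin pair into the dimers that build microtubules, the hollow filaments along which cells move vesicles and organelles and with which they pull chromosomes apart. Several genes encode each kind, the acidic tails of the proteins carry many of their modifications, and cells hold their tubulin mRNA in check by degrading it on the ribosome when free dimers accumulate, through recognition of the first residues of the nascent chain. In hepatocytes, microtubules carry lipoproteins and plasma proteins towards the blood and membrane proteins towards the bile canaliculus.

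The inhibitors target the miR-29 family, and the mature sequences are shown because the family shares 1 seed, here bases 2 to 8 in capitals (RefSeq, GRCm38.p6).
miR-29a-3p: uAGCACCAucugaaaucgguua
miR-29b-3p: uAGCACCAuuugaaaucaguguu
miR-29c-3p: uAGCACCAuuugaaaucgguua
The complement of the seed, TGGTGCT, was searched on the transcript strand in the 3′ UTR of the longest coding transcript of each gene (GENCODE M21, GRCm38). It occurred in 2 of the 9 tubulin genes, Tubb2a and Tubb2b, and in 2716 of the 20948 3′ UTRs of all genes. Their matches are shown with the motif in capitals, since Tubb2a is the gene picked for its rise and Tubb2b is its closest relative.
Tubb2a: gtaaattaTGGTGCTcagtttgc
Tubb2b: tgggtctcTGGTGCTcttcactg
The match began at base 76 of the 194 bases of the Tubb2a 3′ UTR, and at base 123 of the 723 bases of that of Tubb2b. Neither match was followed by an A, a longer form held by 2.85% of all 3′ UTRs. Among 3′ UTRs within 20% of the length, 2.12% of 1365 held the motif for the length of Tubb2a and 7.47% of 2276 for that of Tubb2b. A match describes letters, and binding of miR-29 at it was not measured.

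The start of the coding sequence shows the feature by which tubulin mRNAs are recognised on the ribosome. The first 30 coding bases follow, with the first 4 codons in capitals (GENCODE M21, GRCm38).
Tuba1a: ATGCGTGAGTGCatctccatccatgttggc
Tuba1b: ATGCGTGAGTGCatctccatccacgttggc
Tuba1c: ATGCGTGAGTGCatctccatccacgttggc
Tuba4a: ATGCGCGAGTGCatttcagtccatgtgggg
Tuba8: ATGAGGGAATGCatatcggtccatgtgggt
Tubb2a: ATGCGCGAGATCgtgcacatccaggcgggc
Tubb2b: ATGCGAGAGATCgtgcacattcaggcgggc
Tubb5: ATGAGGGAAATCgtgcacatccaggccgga
Translated, the first 4 codons gave 1 start for the 5 alpha members and another for the 4 beta members, Tubb6 included, whose bases are not shown. The codons themselves differed between genes. Of 21542 coding genes, 8 shared the alpha start and 8 the beta start, and all of these were alpha or beta tubulins. Tubb2a thus has the same start as the other beta tubulins, and decay of its mRNA was not measured.

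The reads assigned to genes numbered 8217212 to 19062437 in saline livers (median 12011982) and 7696081 to 15079236 in LNA29 livers (median 9123458). Values below are those of the authors, signal scaled in each liver to an upper quartile of 1000 over genes that had reads. A single read was worth 9.80 to 24.4 on this scale, and a value of 1 stands for no reads. A pair of livers stood apart. Saline replicate 49 had 35.7% of its reads on albumin, against 43.6% to 46.9% in the other saline livers, and was the lowest saline liver for 6 of the 8 tubulin genes other than Tubb2b. LNA29 replicate 48 was the highest LNA29 liver for 7 of those 8. Differences of the tubulin genes are therefore also given without each of these livers.

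Tubb2a, a beta tubulin found at high levels in brain and at lower levels in many other tissues, read 2480 in the lowest, 3816 in the median and 5298 in the highest saline liver. In LNA29 livers it read 6075 in the lowest, 7508 in the median and 11189 in the highest. The lowest saline liver was replicate 49 and the highest replicate 47, while the LNA29 livers ran from replicate 52 to replicate 48, and the groups did not overlap. The means were 3909 ± 963 (SD, n = 6) and 8049 ± 1790.35 (SD, n = 6), a ratio of 2.06. The log2 difference was 1.05 (SE 0.18). It was 0.93 (SE 0.16) without saline replicate 49 and 0.95 (SE 0.17) without LNA29 replicate 48. These values chose the gene and were not tested. Of the 8 tubulin genes with a mean value of at least 10, Tubb2a was the only 1 whose groups did not overlap, beside 0.985% of all 12486 genes in either direction and 0.272% with all LNA29 livers higher, a count from which nothing is read because the rise picked the gene.

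**Figure D1:**
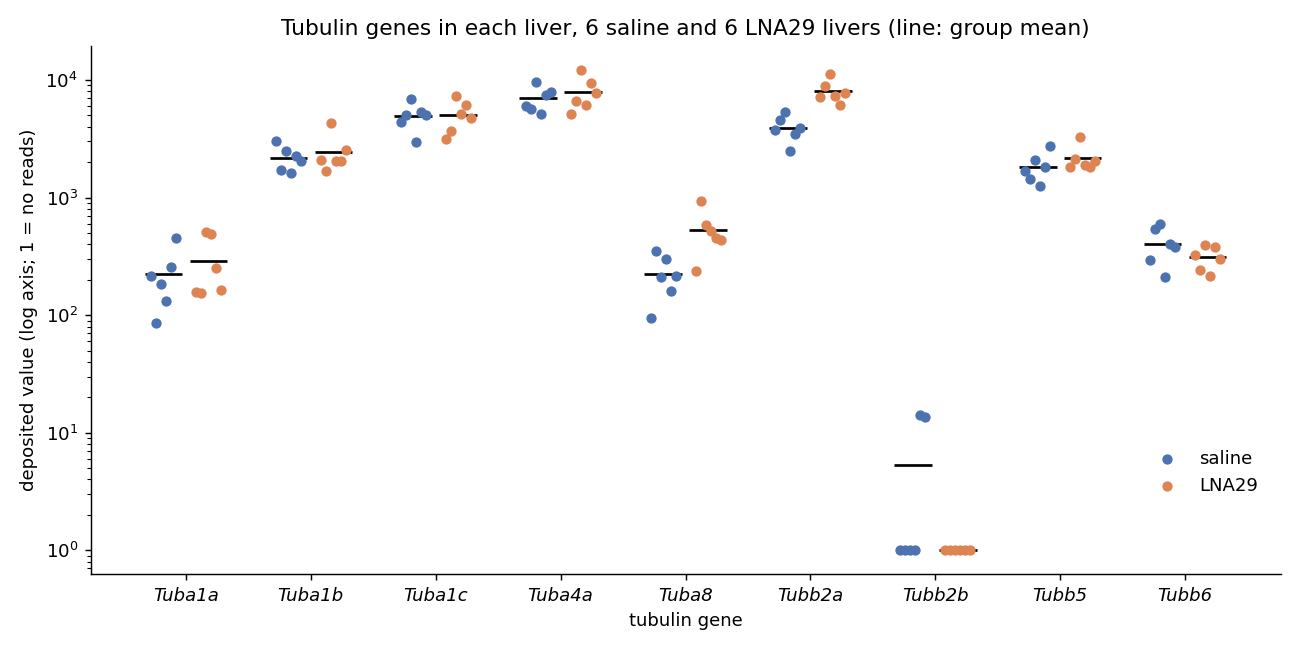
Deposited value (log axis) of each tubulin gene in each liver, saline and LNA29, with 1 point per liver. The LNA29 livers of Tubb2a sit between 6075 and 11189, above the saline livers at 2480 to 5298, while the points of the other genes overlap.

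The plot of values by liver does not show reads, and the reads behind the values tell how well each gene was counted. Tubb2a rested on 239 to 398 reads in saline livers and 322 to 593 in LNA29 livers, while Tuba8 rested on 6 to 30 and 19 to 38. Floors given in reads cover counting error only, since reads without molecular tags are not independent molecules, while the limma intervals carry the spread between livers. Bulk liver RNA also cannot tell more or fewer cells of a type apart from more or less RNA per cell.

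Tubb2b, the beta tubulin best known from developing neurons, was at 1, without reads, in 4 of 6 saline livers and in all 6 LNA29 livers. Saline replicates 51 and 53 held 14.2 and 13.6, the worth of 1.41 and 1.39 reads. All of these lie under a floor of 3 reads, 29.4 to 73.2 on the scale of values, so no fold is given and its absence cannot be read from them. The encoded proteins of Tubb2a and Tubb2b are 99.55% identical, with 2 differences over 445 residues, and their genes lie 48.74 kb apart on chromosome 13 (GRCm38). Of the 100-base windows of the Tubb2a transcript, the length of a read, 35.9% also occur in that of Tubb2b, so some reads fit both genes. Tubb2a held a whole number of reads in 10 livers and a split number in 2, and the sum of both genes was whole in all 12. The summed value had a log2 difference of 1.05 (SE 0.18).

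Tubb5, the most widely expressed beta tubulin of dividing cells, read 1260 to 2725 in saline livers (median 1748) and 1825 to 3302 in LNA29 livers (median 1958). LNA29 replicate 48 was far above the other LNA29 livers, and the groups overlapped. The log2 difference was 0.26 (SE 0.19, 95% interval −0.15 to 0.66, limma adjusted p = 0.807), with 4 of 6 LNA29 livers above the saline mean of 1833. It was 0.16 without saline replicate 49 and 0.13 without LNA29 replicate 48. Tubb6, a divergent beta tubulin whose excess disturbs microtubule arrays in cultured cells, read 210 to 596 in saline livers (median 393) and 214 to 396 in LNA29 livers (median 313). Its log2 difference was −0.34 (SE 0.27, 95% interval −0.90 to 0.23, limma adjusted p = 0.825), with 6 of 6 LNA29 livers below the saline mean of 405. It was −0.51 without saline replicate 49 and −0.41 without LNA29 replicate 48. Neither gene shares a 100-base window with another tubulin, and both held whole reads in all 12 livers.

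The alpha tubulins Tuba1a, Tuba1b and Tuba1c lie together on chromosome 15, 15.27 kb and 76.19 kb apart (GRCm38). Tuba1a is the alpha tubulin of growing neurons, and Tuba1b and Tuba1c are made in most cells. Their transcripts share 38.4%, 52.3% and 53.4% of their 100-base windows with another tubulin, so the value of each is uncertain. With any other annotated gene, the shares were 65.1%, 69.5% and 53.4%. Tuba1a read 86.0 to 457 in saline livers and 154 to 506 in LNA29 livers, with a log2 difference of 0.36 (SE 0.41, 95% interval −0.50 to 1.23, limma adjusted p = 0.890). That difference was 0.25 without saline replicate 49 and 0.16 without LNA29 replicate 48, and leaving out each liver in turn moved it from 0.13, without saline replicate 45, to 0.61, without saline replicate 53. Tuba1b read 1627 to 3013 and 1692 to 4283, with a log2 difference of 0.12 (SE 0.21, 95% interval −0.32 to 0.56, limma adjusted p = 0.935). The highest of these values belongs to LNA29 replicate 48, and without that liver the difference was −0.06. Without saline replicate 49 it was 0.04. Tuba1c read 2951 to 6929 and 3172 to 7325, with a log2 difference of 0.01 (SE 0.21, 95% interval −0.44 to 0.46, limma adjusted p = 0.993). It was −0.13 without saline replicate 49 and −0.11 without LNA29 replicate 48, so no direction is given for it. The sum of the 3 genes was whole in all 12 livers, averaged 7361 ± 1587 (SD, n = 6) and 7755 ± 2445 (SD, n = 6), and had a log2 difference of 0.05 (SE 0.20, limma adjusted p = 0.978).

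Tuba4a, an alpha tubulin made without a carboxy-terminal tyrosine, read 5122 in the lowest, 6743 in the median and 9705 in the highest saline liver, and 5174, 7164 and 12184.5 in LNA29 livers. The lowest saline liver was replicate 49, the highest LNA29 liver was replicate 48, and the groups overlapped. The log2 difference was 0.15 (SE 0.20, 95% interval −0.28 to 0.57, limma adjusted p = 0.921). It was 0.06 without saline replicate 49 and 0.01 without LNA29 replicate 48. The gene overlaps Stk16, a kinase gene on the other strand, by 1379 bases (GRCm38), and its reads were split in all 12 livers. The summed value of both genes was whole in all 12 and had a log2 difference of 0.05 (SE 0.19, limma adjusted p = 0.979). Tuba4a held 69.5% to 75.8% of the pair in saline livers (median 72.04%) and 71.6% to 82.7% in LNA29 livers (median 77.6%), ranges that overlap.

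Tuba8, an alpha tubulin best known from muscle and testis, had the largest log2 difference of the 7 other members tested. It read 93.8 in the lowest, 213 in the median and 349 in the highest saline liver, and 238, 485 and 927 in LNA29 livers. All 6 LNA29 livers were above the saline mean and 5 of 6 above every saline liver, with LNA29 replicate 46 the highest and replicate 44 the lowest. The means were 222 ± 92.2 (SD, n = 6) and 526 ± 228 (SD, n = 6), a ratio of 2.37. The log2 difference was 1.25 (SE 0.34, 95% interval 0.54 to 1.96), with a limma adjusted p of 0.210 that missed the threshold of 0.05. It was 1.36 without saline replicate 49 and 1.20 without LNA29 replicate 48. DESeq2 on reads recovered from the values gave 1.32 with an adjusted p of 0.023, and over all alternatives the adjusted p ran from 0.023 to 0.480.

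By limma, 0 of the 7 other members tested passed an adjusted p of 0.05, beside 20 of 12486 genes (0.160%), of which 9 (0.0721%) were higher and 11 (0.0881%) lower in LNA29 livers. At an unadjusted p under 0.05 there was 1, Tuba8, beside 988 of all genes (7.91%). edgeR called 0 of these members, beside 17 of 12486 genes (0.136%). DESeq2 called 1, Tuba8, beside 72 of the 8848 genes to which it gave an adjusted p (0.814%). Over all genes, 38.6% were higher in LNA29 livers and the median difference was −0.09. The 20 genes depended on single livers. Their number was 1 without saline replicate 43, 11 without saline replicate 47, 3 without saline replicate 51 and 7 without saline replicate 53. It was 8 without LNA29 replicate 46, and 1 without each of LNA29 replicates 50, 52 and 54. Without saline replicate 49 it was 19 and without LNA29 replicate 48 it was 29.

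**Figure D2:**
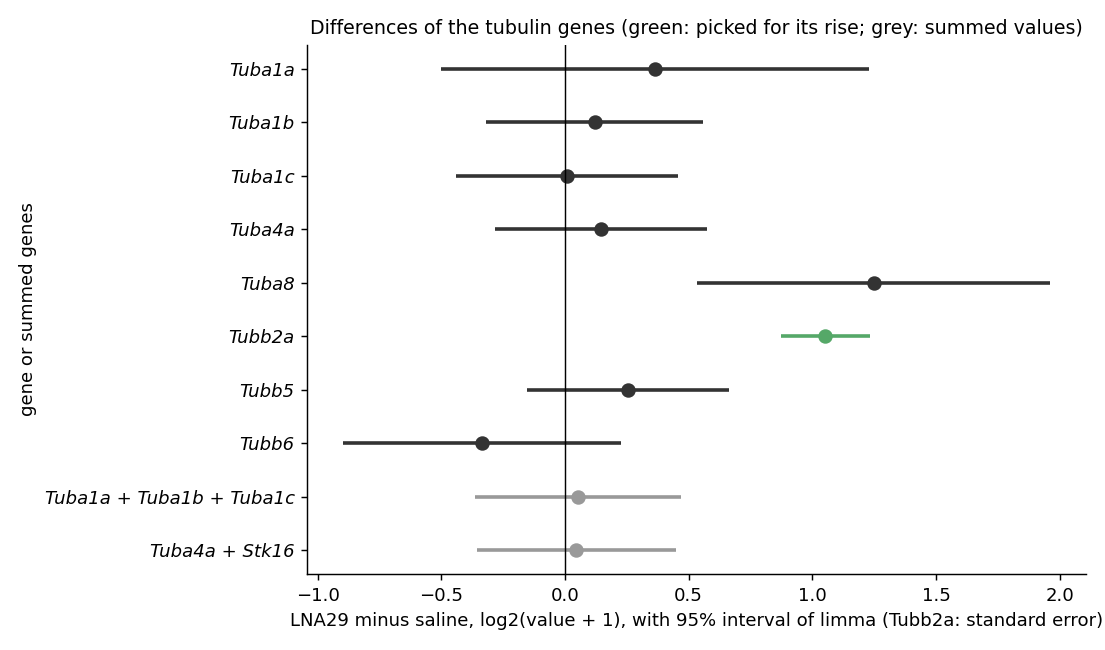
Difference between LNA29 and saline livers in log2(value + 1) for the 8 tubulin genes with a mean value of at least 10 and for summed genes (grey), with 95% intervals of limma and, for Tubb2a (green, picked for its rise), the standard error. Tuba8 lies at 1.25, and the intervals of the other tested genes include 0.

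The plot of differences places Tubb2a, at 1.05, and Tuba8, at 1.25, above the other members, whose differences ran from −0.34 to 0.36. An adjusted p above the threshold does not show that these genes were alike in both groups. The interval of Tuba1a, for example, reached 1.23 upwards.

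Levels of different genes were compared per kilobase of the longest annotated transcript, with Tubb4b, the main beta tubulin of many tissues, and Tubb4a added to complete the beta tubulins with reads. In saline livers, Tubb4b came first at 3106 ± 1008 (SD, n = 6) per kb, followed by Tuba1c at 2497 ± 652, Tuba4a at 2466 ± 602 and Tubb2a at 2428 ± 598. This order did not hold in every liver. Tubb4b was above Tuba1c in 5 of 6 saline livers, Tuba1c above Tuba4a in 4 and Tuba4a above Tubb2a in 4. The ratio of Tubb2a to Tubb4b ran from 0.59 to 1.14 in saline livers. Tuba1b followed at 1257 per kb and Tubb5 at 692, and Tubb6, Tuba1a and Tuba8 lay between 98.0 and 230.3. In LNA29 livers Tubb2a came first at 4999 ± 1112 (SD, n = 6) per kb, above Tubb4b at 3737 ± 445 in 5 of 6 livers. Tuba4a at 2775 per kb and Tuba1c at 2535 came next. Per kilobase of coding sequence, Tubb2a was again at rank 4 in saline and rank 1 in LNA29 livers, but Tuba4a led in saline livers at 5199 and lay close to Tubb2a in LNA29 livers, at 5851 against 6016.

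**Figure D3:**
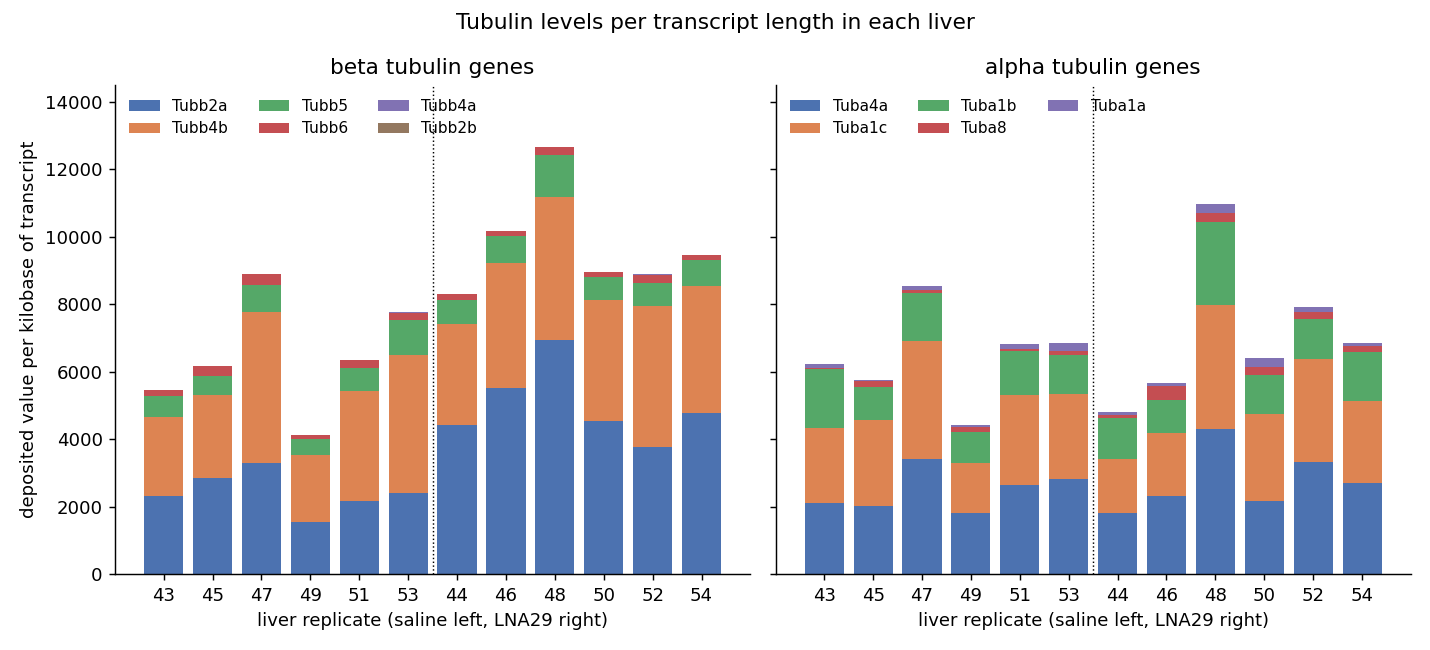
Value per kilobase of transcript for each beta (left) and alpha (right) tubulin gene, as stacked bars with 1 bar per liver. Saline livers stand left of LNA29 livers, and the height of each segment is the level of a gene. Tubb2a stands at rank 4 in saline livers (mean 2428) and at rank 1 in LNA29 livers (mean 4999).

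The plot of levels per kilobase can be summed into the supply of each kind of subunit mRNA. The beta total was 6468 ± 1685 (SD, n = 6) per kb in saline livers and 9742 ± 1564 (SD, n = 6) in LNA29 livers, a ratio of 1.51, and 1.17 without Tubb2a. The alpha total was 6441 ± 1360 and 7104 ± 2171 per kb, a ratio of 1.10. The ratio of the alpha total to the beta total was 1.01 ± 0.10 (SD, n = 6) in saline livers and 0.72 ± 0.14 (SD, n = 6) in LNA29 livers, and the groups overlapped. The ratio depends on the length used, and per kilobase of coding sequence it was 1.31 ± 0.12 (SD, n = 6) and 0.96 ± 0.19 (SD, n = 6). It also holds the Tubb2a values that chose the gene. With Tubb2a left out of the beta total, the ratio per kilobase of transcript was 1.64 ± 0.23 (SD, n = 6) in saline livers and 1.47 ± 0.26 (SD, n = 6) in LNA29 livers, a difference within the spread. Tubb2a made up 31.2% to 45.9% of the beta total in saline livers (median 37.1%) and 42.4% to 54.9% in LNA29 livers (median 51.97%). LNA29 replicate 52 was the liver that fell among the saline livers. Tubb4b made up 47.6% of the beta total on average in saline livers and 38.7% in LNA29 livers, Tubb5 10.8% and 8.32%, and Tubb6 3.53% and 1.83%. The Tubb6 share was 2.80% to 4.96% in saline and 1.36% to 2.41% in LNA29 livers, without overlap, while the shares of Tubb5 and Tubb4b overlapped. The beta total under each share holds the Tubb2a values that chose the gene, so nothing is read from the lack of overlap. The Tubb6 values themselves overlapped, at 210 to 596 in saline and 214 to 396 in LNA29 livers. The ratio of mean shares was 0.52 for Tubb6, 0.77 for Tubb5 and 0.81 for Tubb4b, and the cause was not tested. Shares add up to a whole, so they do not move independently of each other. The ratio of mean values, LNA29 to saline, was 0.76 for Tubb6, 1.18 for Tubb5 and 1.20 for Tubb4b. Of the alpha total, Tuba1a, Tuba1b and Tuba1c held 60.2% and 57.6%, Tuba4a 38.2% and 38.9%, and Tuba8 1.64% and 3.45%.

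The encoded proteins, translated from the coding sequences, were compared over global alignments. Alpha tubulins shared 89.98% to 99.56% of residues with each other (median 96.0%), beta tubulins 90.16% to 99.55% (median 95.5%), and an alpha with a beta tubulin 39.0% to 41.4% (median 40.2%). Tuba1a and Tuba1b were the closest alpha pair, with 2 differences over 451 residues.

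Livers of 1 group also differed from each other, and the deviation of each liver from its group mean in log2(value + 1) shows which genes varied with Tubb2a. Over the 12 livers and 8989 genes with a mean value of at least 100, the highest Pearson r belonged to Eef1a1, a translation elongation factor, at 0.95 (Spearman rho 0.94). Zdhhc1, a palmitoyltransferase, had r 0.94 (rho 0.97), Prdx1, a peroxidase, 0.94 (rho 0.86), Ppia, a prolyl isomerase, 0.94 (rho 0.85), and Rps18, a ribosomal protein, 0.93 (rho 0.88). Without saline replicate 49 and LNA29 replicate 48, the livers farthest from the median, r was 0.90, 0.90, 0.89, 0.86 and 0.84. The median r over all genes was −0.13, with 5th and 95th percentiles of −0.72 and 0.70. Among the tubulins, r was 0.66 for Tubb5, 0.65 for Tubb6, 0.61 for Tuba1c, 0.54 for Tubb4b and for Tuba4a, and 0.51 for Tuba1b. Without the same pair of livers these were 0.32, 0.37, 0.21, 0.30, 0.19 and 0.05, so for these 6 genes r rested largely on those livers. For Tubg1, r went from 0.63 to 0.78 without them and for Tuba8 from 0.20 to 0.47. Tuba1a and Tubb4a had r of 0.14 and 0.09, and −0.27 and −0.21 without the pair. All genes of a liver share its library and depth, and these correlations are a description.

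**Figure D4:**
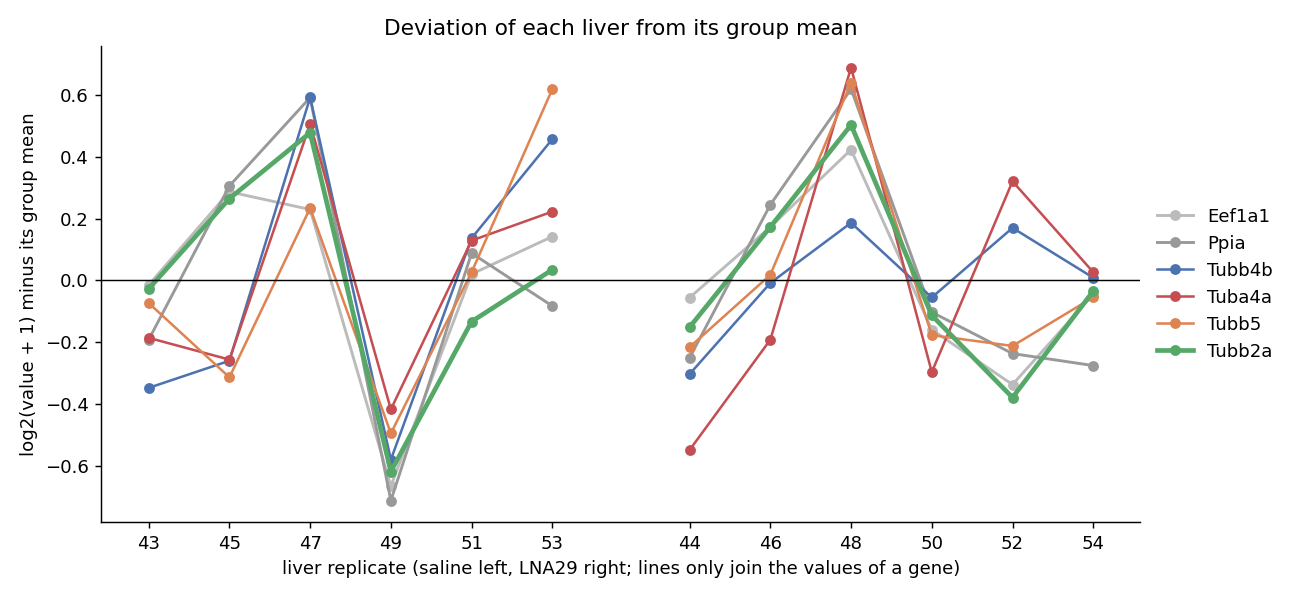
Deviation of each liver from its group mean in log2(value + 1), by liver replicate, for Tubb2a, other tubulin genes and the genes most like it. Saline replicate 49 lies lowest and LNA29 replicate 48 highest for Tubb2a, with Eef1a1 (r 0.95) following it.

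The plot of deviations shows that Tubb2a and several other tubulins were low together in saline replicate 49 and high together in LNA29 replicate 48. Without saline replicate 49 the difference was lower for 7 of the 8 tubulin genes and higher for Tuba8, and without LNA29 replicate 48 it was lower for all 8. These livers were singled out partly for their low and high tubulin values, so the counts largely restate that choice and nothing is read from them.

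Genes that make, fold, modify and use tubulin were described by lists, and by limma 0 genes of any list of related genes other than the members passed an adjusted p of 0.05, nor did any by edgeR (0) or DESeq2 (0). Among 5 other tubulin genes tested, 2 were higher and 3 lower, with a median of −0.44 and 2, Tubd1 and Tubg1, at an unadjusted p under 0.05, as for 7.91% of all genes. Tubb4b averaged 4964 ± 1611 (SD, n = 6) and 5972 ± 711 (SD, n = 6), a log2 difference of 0.32 (SE 0.19, limma adjusted p = 0.729). Of its 100-base windows, 29.2% also occur in another annotated gene, mainly the pseudogene Tubb4b-ps1. Tubg1, the gamma tubulin from which microtubules are nucleated, averaged 1848 ± 403 and 1340.1 ± 188, a log2 difference of −0.44 (SE 0.17, limma adjusted p = 0.456). This difference is also the median of the list. Tubg1 held split reads in 5 of 12 livers, and its sum with Tubg2 was whole in all 12. That sum had a log2 difference of −0.45 (SE 0.18, limma adjusted p = 0.514). Tubd1 had at most 9 reads in a liver, and Tuba3a, Tubal3, Tubb1 and Tubb3 had none. Of 23 genes for folding tubulin, 15 were higher and 8 lower, with a median of 0.09 and 1 at an unadjusted p under 0.05. These counts were 12 and 11 without saline replicate 49, with a median of 0.03. Without LNA29 replicate 48, 16 of the folding genes were higher and 7 lower, with a median of 0.04. Among them, Cct8, a subunit of the chaperonin that folds tubulin, averaged 1684 and 2145 (log2 difference 0.35, limma adjusted p = 0.567), while Tcp1, another subunit, averaged 3204 and 3329. The cofactors Tbca and Tbce had log2 differences of 0.32 and −0.72, with Tbce at 15 reads or fewer.

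The machinery of tubulin mRNA decay was represented by 4 genes, all lower, with a median of −0.16 and 0 at an unadjusted p under 0.05. Saline replicate 49 had the highest summed value of these genes, 1930, against 1105 to 1492 in the other saline livers, and the highest Cnot1 value, 1390. The median was −0.12 without that liver, and without LNA29 replicate 48 it was −0.17, with 1 gene higher and 3 lower. Cnot1, the scaffold of the deadenylase complex, averaged 845 and 707, Scaper, an adaptor to that complex, had 8 reads or fewer, and Cnot11, listed as D1Bwg0212e, averaged 369 and 344. Of 11 genes of the gamma-tubulin ring complex, 3 were higher and 8 lower, with a median of −0.18 and 0 at an unadjusted p under 0.05, and with a median of −0.13 without saline replicate 49 and −0.06 without LNA29 replicate 48. Mzt2, Pcnt, Tubgcp2 and Nedd1 had log2 differences of −0.10, −0.49, −0.36 and 0.51.

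Of 15 genes for tubulin modification, 1 was higher and 14 lower, with a median of −0.23 and 4 at an unadjusted p under 0.05, beside 38.6% of all genes higher, a median of −0.09 and 7.91% at that unadjusted p. The counts were 2 and 13 without saline replicate 49. Atat1, the acetyltransferase of alpha tubulin, read 368 to 556 in saline livers (median 405) and 161 to 340 in LNA29 livers (median 243), without overlap, as for 0.985% of all genes. Its means were 422 ± 69.7 (SD, n = 6) and 254 ± 67.2 (SD, n = 6), a log2 difference of −0.76 (SE 0.23) with a limma adjusted p of 0.265. Sirt2, a deacetylase of tubulin, averaged 3455 and 2982. The deglutamylases Agbl3 and Agtpbp1 had 9 reads or fewer in any liver.

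Of 27 genes for microtubule binding and dynamics, 11 were higher and 16 lower, with a median of −0.07 and 1 at an unadjusted p under 0.05. Leaving out saline replicate 49 made it 15 higher and 12 lower, with a median of 0.06, so no direction is given for the list. Camsap3, which holds minus ends, averaged 472 and 298 (log2 difference −0.69, limma adjusted p = 0.455), and Mapre1, which tracks plus ends, averaged 471 and 615 (log2 difference 0.39, limma adjusted p = 0.657). Map7d1 and Map1s, listed as Mtap7d1 and Mtap1s, had log2 differences of −0.14 and −0.55. Of 30 motor genes, 12 were higher and 18 lower, with a median of −0.09 and 1 at an unadjusted p under 0.05, and 14 were higher and 16 lower without saline replicate 49, with a median of −0.03. Without LNA29 replicate 48, 10 of the motor genes were higher and 20 lower, with a median of −0.07. Among them, Kif1c had a log2 difference of −0.05, and Dctn1, the dynactin subunit that binds microtubules, one of −0.23.

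**Figure D5:**
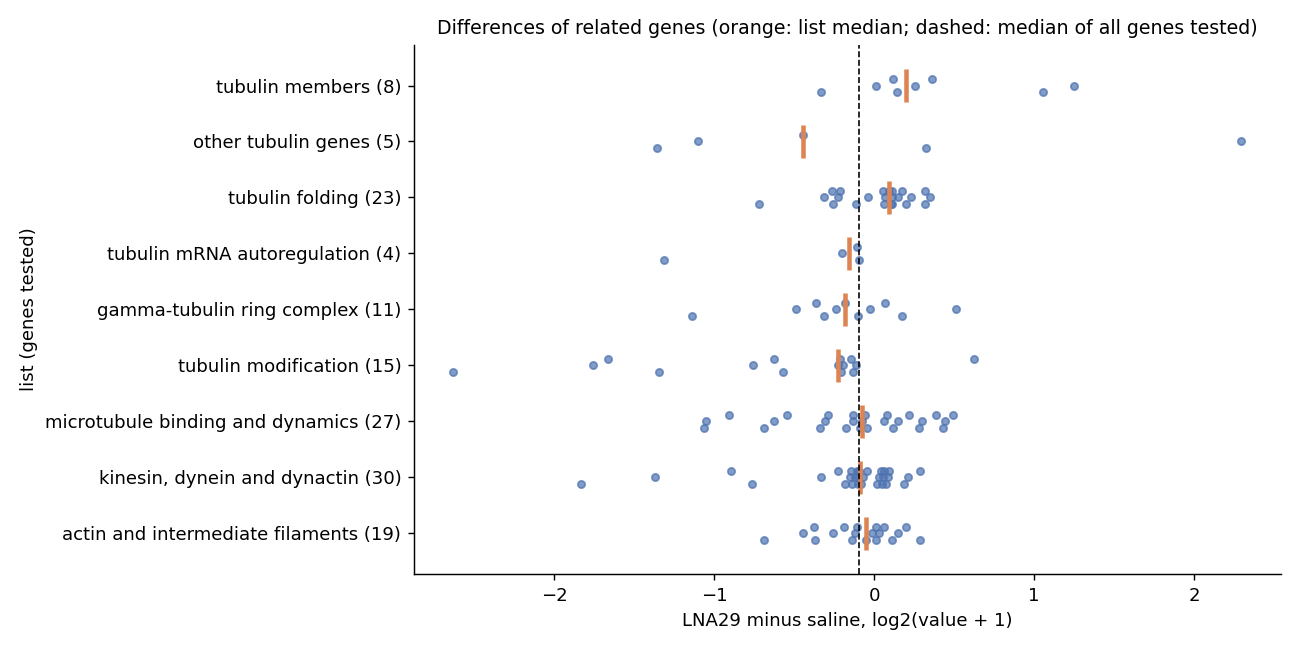
Difference between LNA29 and saline livers in log2(value + 1) for the genes of each list, 1 point per gene, with the median of each list as a bar and the median of all genes (−0.09) as a dashed line. The modification list has its median at −0.23 and the folding list at 0.09.

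The plot of the lists sets them against all genes, whose median of −0.09 was −0.05 once all livers were put on the same median. The choice of lists was made with results of these data known, so nothing particular to a list is read from them.

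Markers of the cell types of the liver were summed in each liver beside these results. The endothelial sum, led by Eng, was 11150 to 12405 in saline livers (median 11684) and 9489 to 11096 in LNA29 livers (median 10489.8), without overlap. Of its 12 genes, 4 were higher and 8 lower, with a median of −0.17 that was −0.06 without saline replicate 49 and also without LNA29 replicate 48, none was without reads, and its part in the tubulin differences was not tested. The summed levels of the hepatocyte, stellate, Kupffer and macrophage, bile duct, lymphocyte, red blood cell and cell cycle lists overlapped between groups. The cell cycle sum, of interest because dividing cells make spindle tubulin, was 277 to 694 in saline livers and 304 to 761 in LNA29 livers, led by Aurka, with 6 of 9 tested genes higher, beside 38.6% of all genes. Of these, Plk1 had at most 3 reads in a liver and Birc5 at most 6. The stellate list had 2 genes higher and 8 lower, the Kupffer and macrophage list 2 and 9, the lymphocyte list 1 and 7 with a median of −0.40, the bile duct list 4 and 3, and the red blood cell list 3 and 1. The hepatocyte list, led by Alb, had 7 of 10 genes higher, 3 of 10 without saline replicate 49, and none of its genes was without reads.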

How the data were processed

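Polyadenylated liver RNA of 12 mice was sequenced as single 100-base reads, which the authors mapped to mm9 with MapSplice2 and counted with RSEM. The deposited signal is each gene's estimated reads scaled to an upper quartile of 1000 (998.3 in saline replicate 49), with 1 for genes without reads. Dividing each value by the worth of a read recovered the reads. Between 92.2% and 93.9% of values were then whole within 0.02, and reads were rounded for count tests. The study's labels give animal numbers, and the groups share none. The authors' own means, fold changes and p-values and 3 unnamed columns were not used.

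limma 3.58.1 in R 4.3.3 compared the groups on log2(value + 1) with a trend, over genes with a mean value of at least 10. Benjamini-Hochberg adjusted p-values were read against 0.05, with 95% intervals. edgeR 4.0.16, DESeq2 1.42.0, other pseudocounts, filters, scalings, array weights, summed copies, coding lengths and leaving out each liver were alternatives. The sums of Tubg1 with Tubg2 and of Tuba4a with Stk16, and the lists without saline replicate 49 or LNA29 replicate 48, were chosen after seeing the data. The fits were tested on simulated data. Sequences came from GENCODE M21 and RefSeq, read with Python 3.11.15 and Biopython 1.88. Of 246 list symbols, 233 matched by symbol, 12 by Entrez ID and 1, Hba-a1, not at all.

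Named were every member, the most abundant gene and the 3 with the smallest unadjusted p of each related list, any listed gene under 0.05 adjusted, and the 5 genes most correlated with Tubb2a. The members and lists were chosen with earlier results of these data known.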

Additional observations from a re-analysis of the deposited data

Results flagged for a closer look

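In 23 groups of 6 livers, the highest or lowest liver was compared with the others of its group, and chance alone marks about 1 in 20 such groups. Tuba1b was 4283 in LNA29 replicate 48, against 1692 to 2521 in the other LNA29 livers. Tubb5 was 3302 in LNA29 replicate 48, against 1825 to 2146 in the others. Tubb2a made up 42.4% of the beta tubulin total in LNA29 replicate 52, against 50.6% to 54.9% in the others.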

How the results depend on the processing

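The number of genes called, 20 (9 higher, 11 lower), was 5 with no filter on low values, 10 with each liver shifted to a common median (6 higher, 4 lower), 72 by DESeq2 (41 higher, 31 lower) and 58 with array weights (18 higher, 40 lower), and the cause was not tested. With TMM scaling it was 14 (9 higher, 5 lower). Leaving out each liver in turn gave 1 to 29. Of the other members, 0 were called under each alternative but DESeq2, which called 1, Tuba8 (log2 difference 1.32), and the cause was not tested. Leaving out each liver gave 0 to 0. The Tubb2a difference was 0.97 to 1.12 over 10 alternatives and 0.93 to 1.15 with each liver left out. Tuba1c, at 0.01, turned to −0.10 with array weights and ran from −0.13 to 0.13 with each liver left out, and Tuba1b ran from −0.0556 without LNA29 replicate 48 to 0.22, and the cause was not tested. Values per kilobase moved by more than their spread in 11 cases with coding length. With each liver left out, Tuba1a ran from 0.13 to 0.61, Tuba4a from 0.01 to 0.26, Tuba8 from 1.03 to 1.46, Tubb5 from 0.13 to 0.38 and Tubb6 from −0.51 to −0.21. Without saline replicate 49 and LNA29 replicate 48 in turn, alternatives chosen after seeing the data, the median difference of the microtubule binding list, −0.07, was 0.0576 and −0.0258, that of the hepatocyte markers, 0.06, was −0.0522 and 0.0156, and that of the bile duct markers, 0.13, was −0.20 and −0.0213, and the cause was not tested. No paired analysis was run, because the groups share no replicate numbers and the labels name no pairs. Animal numbers alternate between the groups, odd in saline and even in LNA29 livers, and a pairing of neighbouring numbers was not tested.

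Depth limits Tuba8, Tubb6, Tuba1a and Tubb2b most, since few reads stand behind them. Reads shared by near-identical or overlapping genes leave single values of Tuba1a, Tuba1b, Tuba1c and Tuba4a uncertain, while their sums are firmer. The sum of Tuba1a, Tuba1b and Tuba1c does not cover windows shared with genes outside the tubulins. The deposited values give no strand. Coding and transcript lengths come from GRCm38, while the reads were mapped to mm9. With 6 livers a group, the 95% interval of Tuba1a still spans a difference as large as that of Tubb2a.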

Other observations

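Genes of actin and intermediate filaments, the other filament systems, had 8 of 19 higher and 11 lower, with a median of −0.05, and by limma 0 passed an adjusted p of 0.05, with 2 at an unadjusted p under 0.05 (7.91% of all genes) and 0 by edgeR and by DESeq2. Without saline replicate 49, 5 were higher and 14 lower, with a median of −0.14, and without LNA29 replicate 48, 4 were higher and 15 lower, with a median of −0.13. Pfn1, the actin monomer binder profilin and the most abundant of them, averaged 19986.9 and 20055. Actn1, an actin crosslinker, averaged 369 and 212 (log2 difference −0.69, limma adjusted p = 0.583). Tpm3, a tropomyosin, and Krt8, a keratin of hepatocytes, had log2 differences of −0.37 and −0.25. The motor genes Kif13b and Kif16b were thinly counted, each with 1 LNA29 liver without reads. Kif13b had a median of 5 reads in saline livers, where replicate 49 held 50 of the 80 reads of the group, and of 2.5 in LNA29 livers.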
